A study of Caenorhabditis elegans with 15 samples.

Results

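Messenger RNA was measured in 15 libraries of young adult *C. elegans*, and the difference between *fbxa-215* mutants and wild-type at 25 °C was compared with the same difference at 20 °C. All 15 libraries entered 1 fit, and 205 of the 14000 genes tested (1.46%) had a strain difference that itself differed between the temperatures at an FDR under 0.05. The wild-type was the Bristol strain N2, with 4 libraries at 20 °C and 4 at 25 °C. The mutants were 1 outcrossed strain, SX3678, which carries the *syb4404* deletion of *fbxa-215* in every cell, with 4 libraries at 20 °C and 3 at 25 °C. Each library came from a synchronised population of whole animals grown on plates from the first larval stage, collected 48 h after plating at 20 °C and about 36 h after plating at 25 °C. Temperature, hours of growth and growth batch therefore cannot be told apart, and a contrast between the temperatures holds all of them.

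F-box proteins are the substrate receptors of SCF ubiquitin ligases, which mark proteins for destruction by the proteasome. *fbxa-215* is expressed in the germline and encodes an F-box protein of the A2 family, which also carries a helix-turn-helix domain. The germline of a hermaphrodite makes sperm first, in the last larval stage, and then switches to oocytes, so RNA of whole young adults holds products of both along with those of intestine, muscle, epidermis and neurons.

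An interaction is given here as the log2 difference of mutants over N2 at 25 °C minus that at 20 °C. A positive value means that the mutants stood higher relative to N2 at 25 °C than at 20 °C, whichever sign the single differences had. Levels are given as CPM, the count scaled to the size of the TMM-normalised library, FDR values were adjusted over all 14000 genes with edgeR, and SE marks the approximate standard error of a log2 value. Depth ran from 10842744 to 16150451 counts in 14 libraries and was 28391866 in mutant replicate 4 at 20 °C. *fbxa-215* itself, on chromosome IV from 13665364 to 13666909, lay between 123.9 and 167 CPM in the 8 N2 libraries, at 0.151 CPM, or 2 counts, in mutant replicate 2 at 20 °C and at 0 in the other 6 mutant libraries. With no reads in the mutants at 25 °C, its interaction cannot be read.

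The genes called fell evenly into both directions. A positive interaction was found for 104 genes (0.743% of those tested) and a negative one for 101 (0.721%). The absolute interaction exceeded 1 on the log2 scale for 43 of the 205, 15 of them positive and 28 negative. Nearly all, 201, are protein-coding, and 4 are pseudogenes. The median gene had 856 counts in its highest group, the lowest and highest gene had 9.67 and 29146, and 3 genes were under 50. Libraries were not strand-specific, and 46 of the 205 share exons with another counted gene, so their values are uncertain.

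Most of these genes had strain differences of opposite sign at the 2 temperatures. Of the 205, 89 were lower in mutants at 20 °C and higher at 25 °C, 87 were higher at 20 °C and lower at 25 °C, 17 were higher at both and 12 lower at both. In the same fit, 134 passed the FDR for the strain difference at 20 °C alone, 38 at 25 °C alone, 25 at both and 8 at neither. Over all genes tested the strain difference passed the FDR for 2746 genes at 20 °C (19.6%) and for 1142 at 25 °C (8.16%). Choosing genes by the interaction favours opposite signs, so these counts describe the genes and test nothing.

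**Figure D1:**
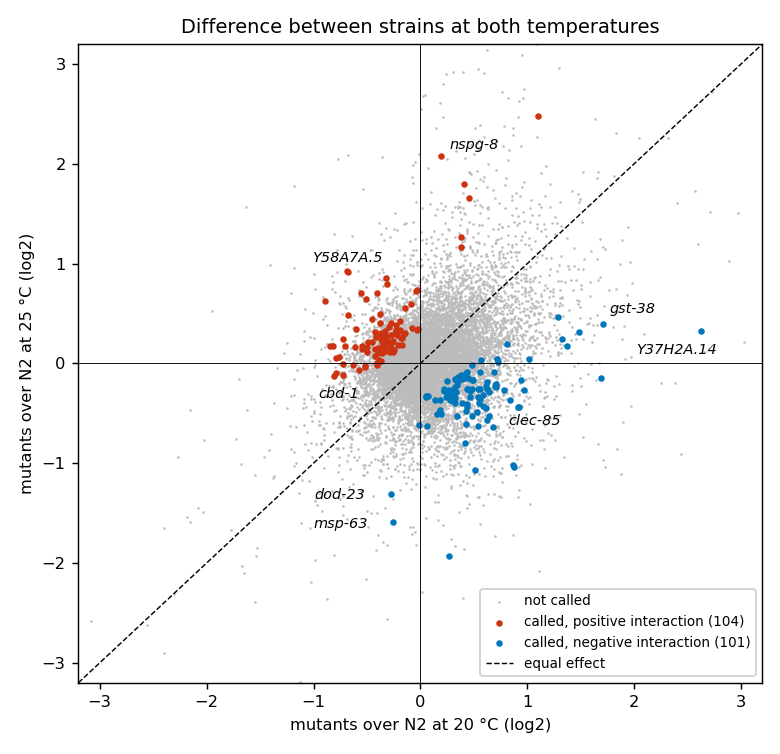
Log2 difference of mutants over N2 at 20 °C (x axis) and at 25 °C (y axis) for each gene tested, with the genes called in the interaction in red (104 positive) and blue (101 negative) and the dashed line marking equal differences. Most called genes lie in the upper left (89 genes) or lower right (87 genes) quadrant, and 24 genes, 1 of them called, fall outside the axes.

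The group that stood farthest from the other 3 was N2 at 20 °C for 129 of the 205 genes, N2 at 25 °C for 55, mutants at 25 °C for 18 and mutants at 20 °C for 3. At 20 °C every mutant library lay on 1 side of every N2 library for 136 of the 205, against 20.4% of all genes tested, and at 25 °C for 118, against 24.3%. Both held for 56, and the share of all genes for which both held was not computed. The genes were chosen by these same differences, so no test is drawn from the counts.

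How many genes passed depended strongly on single libraries. Dropping N2 replicates 1, 2, 3 and 4 at 20 °C in turn gave 413, 34, 50 and 964 genes, and dropping those at 25 °C gave 105, 41, 53 and 167. For the mutants the counts were 18, 30, 111 and 1604 at 20 °C, and 1481, 16 and 12 for replicates 1, 2 and 3 at 25 °C. The count of 1604 belonged to the fit that lacked the deepest library. Thinning that library to the median depth of the others, an alternative chosen after seeing the data, gave 330. The cause of these changes in count was not tested. Of the 205 genes, 204 were tested in all 15 fits without 1 library and kept the sign of their interaction in each. *aaim-1*, a gene with few reads, passed the filter on low counts in 13 fits and kept its sign there. Since the 205 were chosen by this same difference, their kept signs test nothing. All 205 were among the 1604 and also among the 1481, and 10 genes passed in every fit. DESeq2 called 1055 genes and limma voom with library weights 2017, and the latter included all 205.

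**Figure D2:**
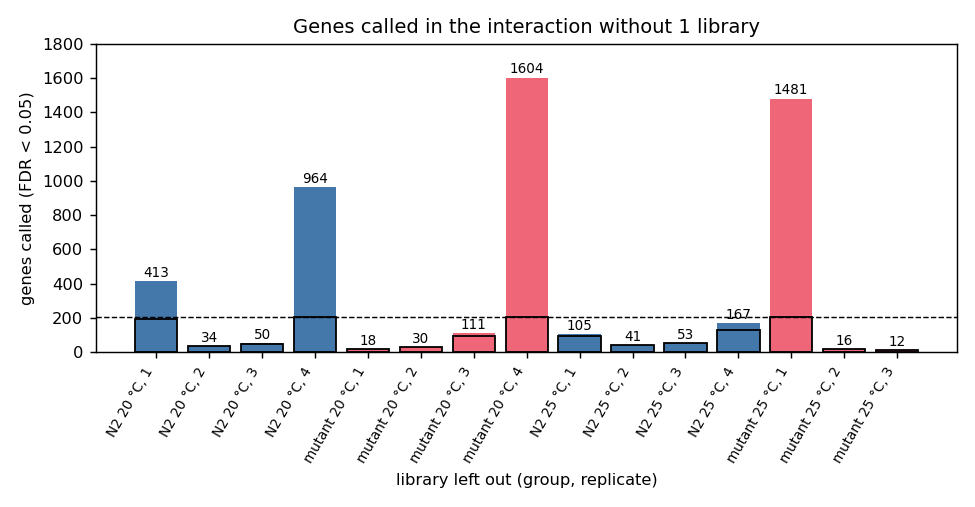
Genes called in the interaction (y axis) after leaving out each library in turn (x axis, blue for N2 and red for mutants), with the outlined part of each bar marking genes that are also among the 205 and the dashed line at 205. Bars reach 1604 and 1481 for mutant replicate 4 at 20 °C and mutant replicate 1 at 25 °C, and 12 is the lowest value.

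A set of 10 genes passed in all 15 of these fits: *nspg-8*, *Y58A7A.5*, *nspc-15*, *enee-1* and *inx-3* with a positive interaction and *clec-85*, *clec-62*, *clec-209*, *C18H9.6* and *F54D5.4* with a negative one. The smallest p-value of all was that of *nspg-8* (WBGene00022490, chromosome III, 1182056 to 1184942, plus strand), a gene of the nematode-specific peptide family of group G. It stood at 25.7, 22.1, 22.03 and 27.02 CPM in N2 and at 27.5, 29.9, 27.7 and 25.6 CPM in mutants at 20 °C. At 25 °C the N2 libraries held 7.18, 6.82, 8.88 and 7.46 CPM and the mutant libraries 40.2, 28.03 and 27.7 CPM. The 4 N2 libraries at 25 °C were low on their own, and the other 11 libraries shared a range from 22.03 to 40.2 CPM. The strain difference was 0.19 at 20 °C (edgeR FDR = 0.28) and 2.08 at 25 °C (FDR = 2.7e-08), and the interaction was 1.89 (SE 0.18, FDR = 5.8e-05). Without 1 library its interaction ran from 1.66 to 1.99.

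*nspg-10* and *nspg-13*, of the same family, went the other way (chosen after their values were seen). Their interactions were -0.47 (SE 0.09, edgeR FDR = 0.019) and -0.55 (SE 0.12, FDR = 0.036). For *nspg-10*, which shares exons with another counted gene, the mean rose in mutants at 20 °C from 151 ± 6.27 to 188 ± 7.11 CPM (SD, n = 4 each) and was 217 ± 16.3 in N2 (n = 4) and 195 ± 5.17 in mutants (n = 3) at 25 °C.

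*Y58A7A.5* (chromosome V, 5085704 to 5086969) crossed over between the temperatures. In N2 it was at 9.24, 11.7, 11.6 and 8.20 CPM at 20 °C and at 5.84, 5.18, 5.75 and 3.89 CPM at 25 °C, and in mutants at 6.22, 6.205, 5.77 and 7.13 CPM at 20 °C and at 8.83, 10.2 and 10.2 CPM at 25 °C. The strains did not overlap at either temperature, and the order reversed. It fell by 0.67 in mutants at 20 °C (edgeR FDR = 0.0058) and rose by 0.91 at 25 °C (FDR = 0.0032), an interaction of 1.58 (SE 0.22, FDR = 0.0035). The same crossing was seen for *enee-1* on chromosome II, which shares exons with another counted gene and fell from 31.5 ± 2.64 to 24.2 ± 1.08 CPM in mutants at 20 °C (SD, n = 4 each) but rose from 24.2 ± 1.44 (n = 4) to 34.01 ± 2.46 CPM (n = 3) at 25 °C. Its interaction was 0.87 (SE 0.12, FDR = 0.0035).

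*inx-3* (chromosome X, 5996156 to 5998243), which shares exons with another counted gene, was at 25.3, 28.9, 27.8 and 21.96 CPM in N2 and at 17.7, 16.7, 16.1 and 17.6 CPM in mutants at 20 °C. At 25 °C it was at 13.6, 11.7, 12.3 and 13.5 CPM in N2 and 18.5, 14.98 and 15.3 CPM in mutants. N2 at 20 °C was the high group and N2 at 25 °C the low one, with both mutant groups between them. It encodes an innexin, a subunit of gap junctions. The interaction was 0.95 (SE 0.16, edgeR FDR = 0.010). *inx-2*, an innexin gene also on chromosome X and named for the size of its interaction, had means of 10.1 ± 0.837, 6.73 ± 1.74, 4.51 ± 0.921 and 7.34 ± 2.12 CPM in N2 at 20 °C, mutants at 20 °C, N2 at 25 °C and mutants at 25 °C (SD, n = 4, 4, 4 and 3). Its interaction was 1.26 (SE 0.30, FDR = 0.043), and it passed in 5 of the 15 fits without 1 library.

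The X chromosome carried 26 of the 104 genes with a positive interaction, 1.37% of the 1894 X-linked genes tested, and 6 of the 101 with a negative one (0.317%). Chromosome IV had the reverse balance, with 15 positive (0.621%) and 30 negative (1.24%) of 2415 genes. On the other autosomes the shares ran from 0.478% to 0.922% for positive and from 0.478% to 1.09% for negative interactions. Among the X-linked genes was *sex-1*, a nuclear hormone receptor by which the embryo reads its number of X chromosomes, with an interaction of 1.11 (SE 0.27, edgeR FDR = 0.048). *tra-2*, which shares exons with another counted gene, and *tra-3*, a membrane receptor and a calpain protease that promote female development, lie on autosomes and had interactions of 0.50 (SE 0.12, FDR = 0.048) and 0.59 (SE 0.11, FDR = 0.019). These 3 genes were chosen after their values were seen. *tra-3* stood at 49.6, 56.2, 48.9 and 47.2 CPM in N2 and 39.5, 40.1, 40.8 and 40.95 CPM in mutants at 20 °C, and at 18.2, 16.7, 18.8 and 18.03 CPM in N2 and 20.5, 22.9 and 21.3 CPM in mutants at 25 °C. All mutant libraries lay under all N2 libraries at 20 °C and over them at 25 °C.

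**Figure D3:**
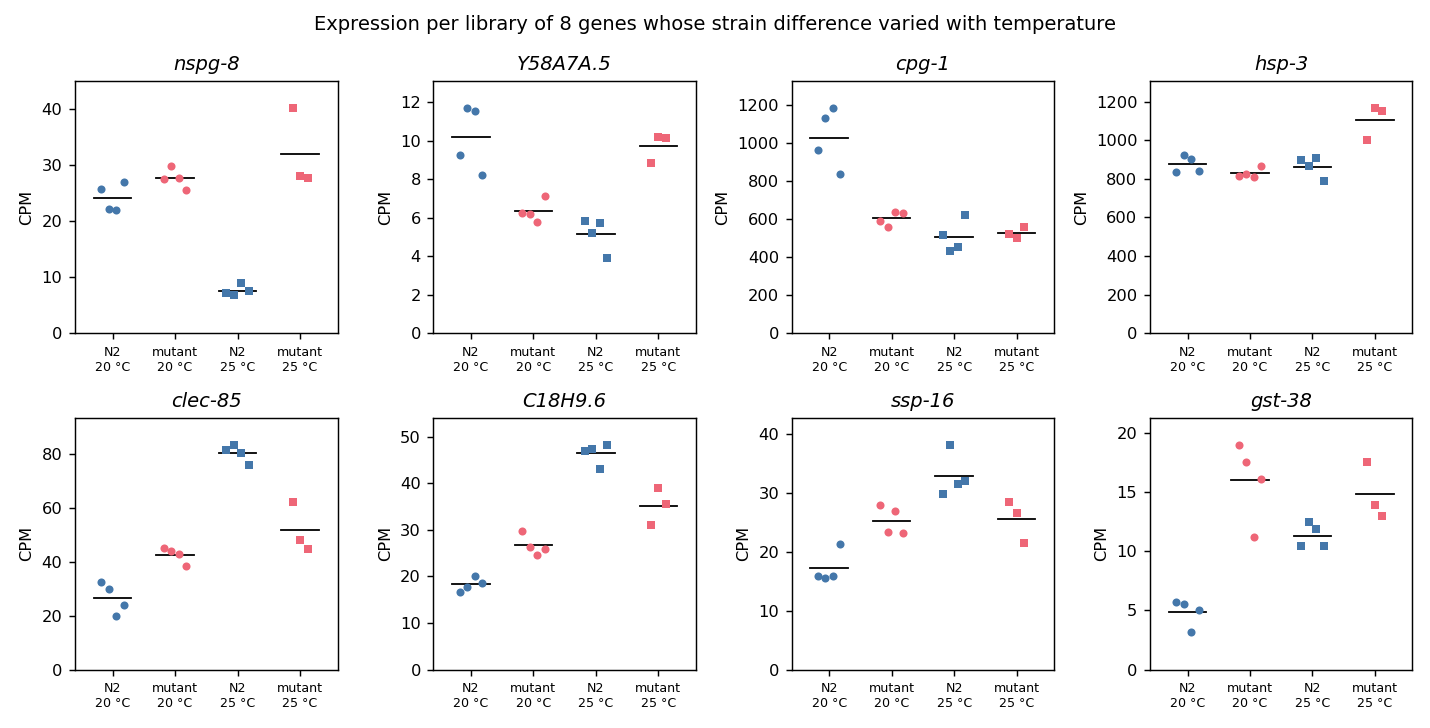
CPM per library (y axis, from 0) of 8 genes in the 4 groups (x axis), with N2 in blue, mutants in red, circles at 20 °C, squares at 25 °C and a black line at each group mean. In the upper row N2 at 25 °C is low for *nspg-8* (mean 7.58 CPM), and in the lower row it is high for *clec-85* (80.5), *C18H9.6* (46.4) and *ssp-16* (33.0).

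Genes of oocytes and the eggshell formed 1 of the 34 lists described. Of its 26 genes tested, 3 were called and all 3 were positive, where 0.743% of all genes were. In the same fit 20 of the 26 were lower in mutants at 20 °C and 4 at 25 °C, against 9.94% and 3.35% of all genes tested. None (0 genes) was higher at either temperature, against 9.68% and 4.81%. Fits without 1 library called 0 to 10 of the 26. Without mutant replicate 4 at 20 °C and mutant replicate 1 at 25 °C together, 11 were positive and 3 negative. That fit called 1503 of 14166 genes positive and 1527 negative. The median interaction of the list was 0.20, and -0.00015 over all genes tested.

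*cpg-1* encodes a chondroitin proteoglycan of the eggshell. Its levels at 20 °C were 963, 1135, 1185 and 835 CPM in N2 and 589, 559, 639.9 and 635 CPM in mutants. At 25 °C they were 514, 432, 454 and 622 CPM in N2 and 521, 500.3 and 560.4 CPM in mutants. Only the N2 libraries at 20 °C were high, and the 3 other groups overlapped. *cpg-1* fell by 0.77 in mutants at 20 °C (edgeR FDR = 6.8e-04) and differed by 0.06 at 25 °C (FDR = 0.78), for an interaction of 0.83 (SE 0.17, FDR = 0.031).

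*cbd-1*, a chitin-binding protein of the eggshell's outer layer, was likewise high in N2 at 20 °C alone. N2 libraries held 1612, 1831, 1862 and 1358 CPM at 20 °C and 854, 736, 751 and 998 CPM at 25 °C, and mutant libraries 935, 914, 1006 and 1006 CPM at 20 °C and 762, 827 and 758 CPM at 25 °C. The interaction was 0.69 (SE 0.15, edgeR FDR = 0.032). For *oma-2*, a zinc-finger protein needed for oocyte maturation, the means in N2 and mutants were 417 ± 54.9 and 270.2 ± 24.9 CPM at 20 °C (SD, n = 4 each) and 219 ± 19.8 (n = 4) and 217 ± 3.13 CPM (n = 3) at 25 °C. The interaction was 0.61 (SE 0.13, FDR = 0.034).

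*meg-1*, which encodes a protein of the germ granules of the early embryo, was high in the same group. It was at 120.0, 151, 149 and 106 CPM in N2 and at 69.4, 71.7, 73.0 and 89.4 CPM in mutants at 20 °C, and between 57.0 and 71.7 CPM in all 7 libraries at 25 °C. Its interaction was 0.84 (SE 0.17, edgeR FDR = 0.031). A further 3 genes of this kind were chosen after their values were seen. The interaction was 0.49 (SE 0.10, FDR = 0.034) for *mex-5*, an RNA-binding protein of embryonic polarity, 0.66 (SE 0.13, FDR = 0.030) for the cyclin gene *cyb-3*, and 0.42 (SE 0.10, FDR = 0.041) for *car-1*, an RNA-binding protein of germline granules. All 3 fell in mutants at 20 °C, by 0.52, 0.50 and 0.39. At 25 °C their strain differences were -0.03, 0.16 and 0.03 (FDR = 0.82, 0.30 and 0.81).

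In the germ granule and small RNA list, 2 of 50 genes were called, *meg-1* and *alg-4*, where 1.46% of all genes were. With single libraries left out the count ran from 0 to 20. Of the list, 27 were lower in mutants at 20 °C and 5 at 25 °C, against 9.94% and 3.35% of all genes. *alg-4*, an Argonaute protein that acts in sperm development, was negative. It rose at 20 °C from 32.2 ± 3.62 to 47.9 ± 1.00 CPM (SD, n = 4 each), and was at 47.5 ± 1.91 (n = 4) and 48.4 ± 5.38 CPM (n = 3) at 25 °C, an interaction of -0.54 (SE 0.12, edgeR FDR = 0.036). The 6 vitellogenin genes, which encode yolk proteins, were all lower in mutants at 20 °C and none (0 genes) passed at 25 °C. Their interactions were all positive with a median of 0.24, and none (0 genes) was called by edgeR, DESeq2 or limma voom. An unadjusted p under 0.05 in edgeR was reached by 1 of the 6, where 24.6% of all genes reached it.

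Oocyte markers moved with the groups in which these genes differed. The summed level of 8 marker genes, of which *cbd-1* and *oma-2* are 2, was 4428 to 5625 CPM in N2 at 20 °C. It was 3446 to 3748 CPM in mutants at 20 °C, 3203 to 3962 CPM in N2 at 25 °C and 3204 to 3247 CPM in mutants at 25 °C. For 6 of the 8, the called *cbd-1* and *oma-2* among them, each N2 library at 20 °C lay above the 11 others. The share of all genes for which this held was not computed. The strains did not overlap at 20 °C, in either direction, for 20.4% of all genes tested. In RNA of whole animals, fewer oocytes and less RNA per oocyte cannot be told apart. The sum of 10 germline markers was 2906 to 3256 CPM in N2 and 2830 to 2922 CPM in mutants at 20 °C, and 2446 to 2646 and 2325 to 2411 CPM at 25 °C. Markers of embryos summed to at most 1.51 CPM in every library, with *med-1* at 0 in all 15. What part the oocyte and germline content had in the interactions was not tested.

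**Figure D4:**
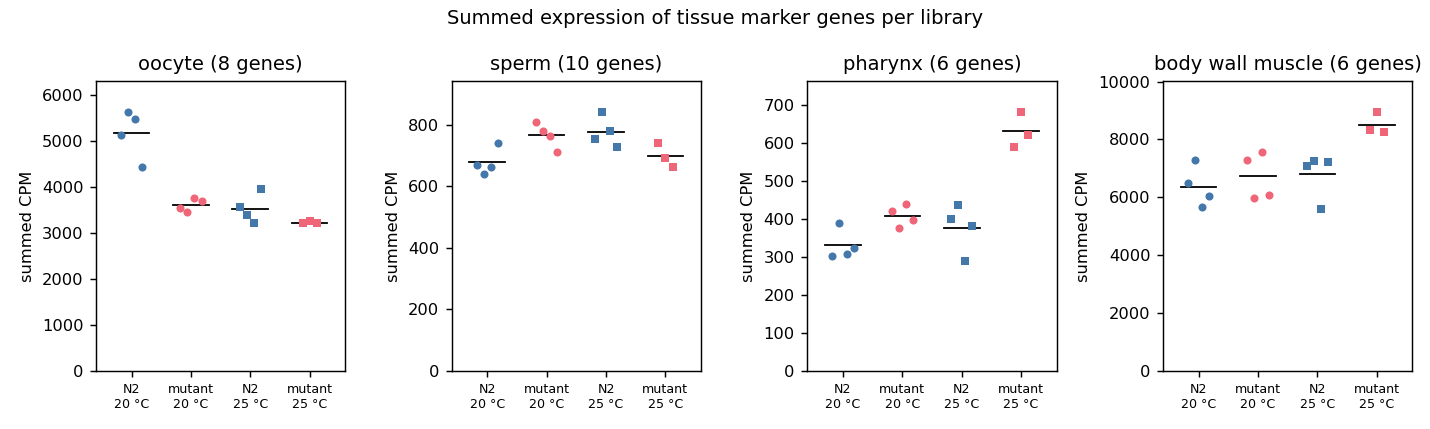
Summed CPM of marker genes per library (y axis, from 0) for oocytes, sperm, pharynx and body wall muscle in the 4 groups (x axis), with N2 in blue, mutants in red, circles at 20 °C, squares at 25 °C and a black line at each group mean. Oocyte markers are highest in N2 at 20 °C (4428 to 5625 CPM), and pharynx and muscle markers are highest in mutants at 25 °C (591 to 682 and 8259 to 8946 CPM).

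Sperm genes lay on the negative side. Of 82 genes tested (major sperm proteins, sperm-specific families and spermatogenesis genes), 5 were called and all 5 were negative, where 0.721% of all genes were, and 73 of the 82 had a value below 0. The list's median was 0.24 for mutants over N2 at 20 °C and -0.22 at 25 °C, and the median interaction was -0.48. At 20 °C 14 were higher in mutants and none (0 genes) lower, against 9.68% and 9.94% of all genes. At 25 °C none (0 genes) was higher and 4 were lower, against 4.81% and 3.35%. Fits without 1 library called 0 to 30. Without mutant replicate 4 at 20 °C and mutant replicate 1 at 25 °C together 42 were negative and 3 positive. That fit called 1527 of 14166 genes negative and 1503 positive.

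*ssp-16*, a sperm-specific family gene on chromosome I, stood at 15.9, 15.7, 16.01 and 21.3 CPM in N2 and at 27.9, 23.5, 26.9 and 23.2 CPM in mutants at 20 °C. At 25 °C it was at 29.9, 38.3, 31.5 and 32.2 CPM in N2 and at 28.6, 26.7 and 21.6 CPM in mutants. The strains did not overlap at either temperature and stood in opposite order. The interaction was -0.92 (SE 0.18, edgeR FDR = 0.023). *spe-46*, needed for spermatogenesis, rose from 10.6 ± 2.15 to 16.3 ± 1.82 CPM in mutants at 20 °C (SD, n = 4 each) and was at 18.2 ± 2.38 (n = 4) and 13.3 ± 1.87 CPM (n = 3) in N2 and mutants at 25 °C. Its interaction was -1.06 (SE 0.22, FDR = 0.031).

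*msp-63* and *msp-36* encode major sperm proteins, the cytoskeletal proteins that drive sperm crawling. Members of this family are nearly identical, so their reads may have been split among them. *msp-63* was at 6.28, 5.77, 4.90 and 6.51 CPM in N2 and 5.67, 6.05, 4.54 and 3.74 CPM in mutants at 20 °C. At 25 °C N2 had 5.05, 6.09, 4.96 and 4.97 CPM and mutants had 1.75, 1.54 and 1.93 CPM. The mutants at 25 °C were low on their own, with an interaction of -1.34 (SE 0.27, edgeR FDR = 0.028). *msp-36* had the highest level of the called sperm genes, between 117 and 213 CPM, and an interaction of -0.87 (SE 0.19, FDR = 0.040). That of *spe-18* was -0.52 (SE 0.12, FDR = 0.041).

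Further sperm-enriched genes outside the list, chosen after their values were seen, were called with the same sign. *spch-1* and *spch-2* encode sperm chromatin proteins and had interactions of -0.70 (SE 0.15, edgeR FDR = 0.031) and -0.64 (SE 0.15, FDR = 0.043). *ssq-2*, of a sperm-specific family, was at -0.66 (SE 0.13, FDR = 0.024). Both chromatin protein genes rose in mutants at 20 °C, by 0.45 and 0.48, and *ssq-2* fell by 0.47 at 25 °C. The summed level of 10 sperm markers was 639 to 739 CPM in N2 and 711 to 808 CPM in mutants at 20 °C, and 728 to 841 CPM in N2 and 662 to 741 CPM in mutants at 25 °C, with the strains overlapping at both. The part of sperm content in the interactions was not tested.

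C-type lectins are secreted or membrane proteins with a carbohydrate-binding type of fold, and many are expressed in the intestine and induced by pathogens. Of 101 tested, 8 were called and all 8 were negative, where 0.721% of all genes were. Fits without 1 library called between 3 and 15 of them, and *clec-85*, *clec-209* and *clec-62* passed in all 15. Without mutant replicate 4 at 20 °C and mutant replicate 1 at 25 °C together, 16 were negative and 3 positive. That fit called 1527 of 14166 genes negative and 1503 positive. At 20 °C 29 were higher in mutants and 2 lower, against 9.68% and 9.94% of all genes. At 25 °C 8 were higher and 7 lower, against 4.81% and 3.35%. Of 8 intestine markers, 5 were higher in each mutant library than in each N2 library at 25 °C and 1 was lower. The 5 were *elt-2*, *ifb-2*, *act-5*, *asp-1* and *cpr-1*, and the lower 1 was *ges-1*. The strains did not overlap at 25 °C, in either direction, for 24.3% of all genes tested. The sums of the 8 markers were 43882 to 52859 CPM in N2 and 37749.7 to 45413 CPM in mutants at 20 °C, and 41569.8 to 48579.8 CPM and 42532 to 48669 CPM at 25 °C. Most of each sum came from the vitellogenin genes *vit-2* and *vit-6*. In N2 replicate 1 at 20 °C they held 20376 and 21233 of 44649 CPM, so the sums mainly show these 2 genes. The part of intestine content in the interactions was not tested.

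*clec-85* (chromosome IV, 2850886 to 2855456), which shares exons with another counted gene, was at 32.6, 29.9, 19.9 and 24.2 CPM in N2 and at 45.3, 44.3, 42.9 and 38.7 CPM in mutants at 20 °C. At 25 °C N2 had 81.7, 83.6, 80.7 and 76.2 CPM and mutants had 62.1, 48.3 and 44.8 CPM. The order of the strains reversed without overlap. *clec-85* rose by 0.67 in mutants at 20 °C (edgeR FDR = 0.0024) and fell by 0.64 at 25 °C (FDR = 0.0083), with an interaction of -1.31 (SE 0.18, FDR = 0.0039).

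*clec-62*, *clec-63* and *clec-65* lie within 1 stretch of chromosome II, from 12893062 to 12903336, and had interactions of -0.80 (SE 0.12, edgeR FDR = 0.0052), -0.57 (SE 0.09, FDR = 0.0092) and -0.58 (SE 0.11, FDR = 0.023). *clec-63* was the most abundant of the 3, at 684, 641, 650.5 and 594 CPM in N2 and 808, 804, 739 and 848 CPM in mutants at 20 °C. At 25 °C it was at 1413, 1339.6, 1435 and 1380.5 CPM in N2 and at 1259, 1123 and 1122 CPM in mutants. Mutants were above N2 at 20 °C and below it at 25 °C in every library. *clec-209* on chromosome V was called as well, with means of 305 ± 29.4 and 380.4 ± 28.9 CPM in N2 and mutants at 20 °C (SD, n = 4 each) and of 726 ± 26.7 (n = 4) and 549.9 ± 32.0 CPM (n = 3) at 25 °C. Its interaction was -0.72 (SE 0.11, FDR = 0.0052). Of the other called lectin genes, *clec-160*, *clec-175* and *clec-73* rose in mutants at 20 °C, by 0.81, 0.94 and 0.39.

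*C18H9.6* and *F54D5.4*, on chromosome II, had the pattern of the lectins. *C18H9.6* was at 16.7, 17.8, 20.2 and 18.5 CPM in N2 and 29.8, 26.3, 24.5 and 26.0 CPM in mutants at 20 °C, and at 47.0, 47.3, 43.0 and 48.3 CPM in N2 and 31.03, 38.9 and 35.6 CPM in mutants at 25 °C. Neither temperature showed overlap of the strains, and the interaction was -0.94 (SE 0.13, edgeR FDR = 0.0035). For *F54D5.4* it was -1.02 (SE 0.15, FDR = 0.0060), with means of 139 ± 19.6 and 195 ± 16.6 CPM in N2 and mutants at 20 °C (SD, n = 4 each) and 328 ± 24.3 (n = 4) and 227 ± 35.4 CPM (n = 3) at 25 °C.

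None of the 68 lysozyme and antimicrobial peptide genes was called (0 by edgeR, 7 by DESeq2 and 20 by limma voom), although 55 had a value below 0 and the median was -0.43. Of all 14000 genes DESeq2 called 1055 and limma voom 2017. An unadjusted p under 0.05 in edgeR was reached by 23 negative and 3 positive members, and by 24.6% of all genes. Fits without 1 library called 0 to 13. Without mutant replicate 4 at 20 °C and mutant replicate 1 at 25 °C together 23 were called. That fit called 3030 of 14166 genes. Of the stress and longevity effectors 2 of 34 were called, *dod-22* and *dod-23*, named as genes downstream of the transcription factor DAF-16, and both were negative, where 0.721% of all genes were. Between 0 and 9 of the list passed when single libraries were left out. *dod-23* was at 65.8, 53.1, 61.6 and 69.0 CPM in N2 and 59.9, 52.4, 53.5 and 40.8 CPM in mutants at 20 °C, and at 83.4, 110.4, 82.7 and 129 CPM in N2 and 44.4, 39.4 and 39.3 CPM in mutants at 25 °C. The strains overlapped at 20 °C, and at 25 °C each mutant library was below each N2 library. The interaction was -1.03 (SE 0.22, edgeR FDR = 0.036), and that of *dod-22* was -1.22 (SE 0.24, FDR = 0.032).

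Of 128 genes of fatty acid and lipid metabolism, 6 were called with a negative and 1 with a positive interaction, where 0.721% and 0.743% of all genes were, and fits without 1 library called 0 to 22. At 20 °C 22 were higher in mutants and 9 lower, against 9.68% and 9.94% of all genes. At 25 °C 4 were higher and 18 lower, against 4.81% and 3.35%. *acox-3*, an acyl-CoA oxidase of peroxisomal fatty acid oxidation, was at 14.2, 11.1, 11.8 and 14.96 CPM in N2 and 13.4, 13.8, 14.7 and 12.5 CPM in mutants at 20 °C. At 25 °C N2 had 33.6, 29.3, 33.4 and 34.8 CPM and mutants had 23.3, 21.2 and 19.1 CPM. The strains overlapped at 20 °C and not at 25 °C, and the interaction was -0.69 (SE 0.16, edgeR FDR = 0.041).

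*lipl-5*, a lysosomal lipase, was at 263 ± 18.2 and 277 ± 11.03 CPM in N2 and mutants at 20 °C (SD, n = 4 each) and fell in mutants at 25 °C from 571 ± 28.9 (n = 4) to 456 ± 17.9 CPM (n = 3). Its interaction was -0.40 (SE 0.09, edgeR FDR = 0.037). *lips-15*, a lipase-related gene, fell by 0.62 in mutants at 25 °C alone and had an interaction of -0.60 (SE 0.14, FDR = 0.037). *lbp-2*, a lipid-binding protein, rose by 0.26 at 20 °C and fell by 0.31 at 25 °C (interaction -0.57, SE 0.12, FDR = 0.036). *fat-4*, the delta-5 fatty acid desaturase, and *maoc-1*, an enzyme of peroxisomal oxidation that shares exons with another counted gene, fell in mutants at 25 °C by 0.33 and 0.37. The positive member was *acs-4*, an acyl-CoA synthetase, with an interaction of 0.48 (SE 0.12, FDR = 0.049).

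*gst-38* was the only called member of 37 glutathione transferases, where 1.46% of all genes were called. Fits without 1 library called 0 to 6 of the 37. *gst-38* was at 5.71, 5.52, 3.15 and 5.07 CPM in N2 and 18.99, 17.6, 11.2 and 16.1 CPM in mutants at 20 °C, and at 10.5, 12.4, 11.8 and 10.4 CPM in N2 and 17.6, 13.9 and 13.01 CPM in mutants at 25 °C. The mutants were above N2 at both temperatures, by 1.71 at 20 °C (edgeR FDR = 1.8e-05) and by 0.39 at 25 °C (FDR = 0.17). The interaction was -1.31 (SE 0.26, FDR = 0.027).

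The called chaperones were positive. Of 62 genes, 3 were called, all positive, where 0.743% of all genes were, with 0 to 13 in fits without 1 library. Without mutant replicate 4 at 20 °C and mutant replicate 1 at 25 °C together 13 were positive and 4 negative. That fit called 1503 of 14166 genes positive and 1527 negative. The median interaction of the list was 0.09, and 38 of the 62 had a value above 0. *hsp-3* and *hsp-4* both encode BiP, the HSP70 chaperone of the endoplasmic reticulum, and *dnj-13* encodes an HSP40 co-chaperone. *hsp-3* was at 835, 923, 905 and 840.1 CPM in N2 and 816, 827, 810.2 and 868 CPM in mutants at 20 °C, and at 896, 866, 907 and 788 CPM in N2 and 1001, 1168 and 1150.4 CPM in mutants at 25 °C. The 3 mutant libraries at 25 °C were above the 12 others, and the interaction was 0.43 (SE 0.09, edgeR FDR = 0.036). *hsp-4* had an interaction of 0.36 (SE 0.09, FDR = 0.049) and *dnj-13* of 0.45 (SE 0.09, FDR = 0.028). *dnj-13* rose in mutants at 25 °C by 0.30, from 118 ± 2.37 (SD, n = 4) to 145 ± 15.6 CPM (n = 3), and was at 229.8 ± 12.3 and 207 ± 3.22 CPM in N2 and mutants at 20 °C (n = 4 each). *hsf-1*, the transcription factor of the heat shock response, had an interaction of -0.02 (SE 0.11, FDR = 0.92).

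Of the genes for proteins rich in glutamine and asparagine (*abu* and *pqn*), many of which belong to the cuticle of the pharynx, 3 of 56 were called, all positive, where 0.743% of all genes were, and 46 had a value above 0 with a median of 0.50. Leaving out single libraries gave 0 to 8 calls. At 25 °C 13 were higher in mutants, against 4.81% of all genes, and at 20 °C 3 were higher and 6 lower, against 9.68% and 9.94%. *pqn-65* stood at 68.1, 77.1, 82.1 and 63.6 CPM in N2 and 59.5, 57.4, 60.1 and 62.5 CPM in mutants at 20 °C, and at 54.8, 50.1, 45.5 and 52.8 CPM in N2 and 55.4, 65.2 and 65.4 CPM in mutants at 25 °C. The strains stood in opposite order at the 2 temperatures without overlap. Its interaction was 0.57 (SE 0.12, edgeR FDR = 0.035), beside 0.78 (SE 0.19, FDR = 0.049) for *pqn-21* and 0.59 (SE 0.15, FDR = 0.049) for *pqn-96*.

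In the list of muscle filaments, 2 of 33 genes were called, the actin genes *act-3* and *act-2*, with interactions of 0.70 (SE 0.15, edgeR FDR = 0.035) and 0.47 (SE 0.11, FDR = 0.042), where 1.46% of all genes were called. Leave-one-out fits called 0 to 6. Of the list, 12 were higher in mutants at 20 °C and 15 at 25 °C, against 9.68% and 4.81% of all genes. The actin genes lie near each other on chromosome V and are nearly identical in sequence, so reads may have been split between them. *act-3* was at 1596, 2035, 1994 and 1546 CPM in N2 and 1655, 1529, 1645 and 1657 CPM in mutants at 20 °C, and at 1774, 1653, 1378 and 1712 CPM in N2 and 2022, 2534 and 2642 CPM in mutants at 25 °C. The mutants overlapped N2 at 20 °C and exceeded it at 25 °C. The summed level of 6 body wall muscle markers was 8259 to 8946 CPM in mutants and 5608 to 7245 CPM in N2 at 25 °C, and overlapped between the strains at 20 °C. Of 6 pharynx markers, 4 were higher in each mutant library than in each N2 library at 25 °C, with sums of 591 to 682 and 288 to 437 CPM. Of these 4, *abu-1* and *pqn-2* belong to the *abu* and *pqn* genes described above. Among 7 neuron markers, 4 were likewise higher in each mutant library at 25 °C. The strains did not overlap at 25 °C, in either direction, for 24.3% of all genes tested. The part of muscle, pharynx and neurons in the interactions was not tested.

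Cuticle collagens were higher in mutants at 20 °C for 27 of 108 genes and at 25 °C for none (0 genes), against 9.68% and 4.81% of all genes. They were lower for 3 at 20 °C and for 8 at 25 °C, against 9.94% and 3.35%. The list's median was 0.50 for mutants over N2 at 20 °C and 0.37 at 25 °C, and the median interaction was -0.22. Of the 108 genes 3 were called, all negative, where 0.721% of all genes were, and fits without 1 library called 0 to 24. *col-141* was at 7.01, 4.61, 5.09 and 6.03 CPM in N2 and 9.98, 10.82, 9.30 and 9.29 CPM in mutants at 20 °C, and at 9.004, 8.45, 10.7 and 9.33 CPM in N2 and 8.22, 7.34 and 7.89 CPM in mutants at 25 °C. N2 at 20 °C was the low group, and the interaction was -1.05 (SE 0.20, edgeR FDR = 0.022). *col-149* and *col-159*, which share exons with other counted genes, had interactions of -0.91 (SE 0.20, FDR = 0.038) and -0.77 (SE 0.18, FDR = 0.043). The 19 collagens known for their role in body shape had a median of 0.57, which turned to -0.41 without N2 replicate 4 at 20 °C, and none (0 genes) was called by edgeR, DESeq2 or limma voom or reached an unadjusted p under 0.05.

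*cpr-1* and *asp-4* were the called members of 38 protease genes, with opposite signs, where 1.46% of all genes were called. *cpr-1*, a cathepsin B-like cysteine protease of the intestine, was at 76.7, 79.0, 135 and 91.8 CPM in N2 and 66.96, 60.4, 69.9 and 70.4 CPM in mutants at 20 °C, and at 91.9, 92.1, 102 and 80.9 CPM in N2 and 155, 133 and 142 CPM in mutants at 25 °C. Mutants were below N2 at 20 °C and above it at 25 °C, and the interaction was 1.16 (SE 0.21, edgeR FDR = 0.027). *cpr-1* is itself 1 of the 8 intestine markers. *asp-4*, a cathepsin D-like aspartyl protease that shares exons with another counted gene, had an interaction of -0.55 (SE 0.11, FDR = 0.028).

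Further families of short nematode-specific peptides (groups A, B, C, E and F) had 2 called members of 27, both positive, of group C and on the X chromosome, where 0.743% of all genes were positive. Of the 27, 13 were higher in mutants at 20 °C and 14 at 25 °C, against 9.68% and 4.81% of all genes. *nspc-15*, which shares exons with another counted gene, was at 18.1, 21.996, 29.1 and 20.7 CPM in N2 and 31.2, 30.6, 27.7 and 33.0 CPM in mutants at 20 °C. At 25 °C it was at 13.7, 16.3, 13.2 and 11.3 CPM in N2 and 48.4, 41.9 and 38.1 CPM in mutants. Mutants were higher at both temperatures, by 0.45 (edgeR FDR = 0.022) and 1.65 (FDR = 1.5e-06), with an interaction of 1.20 (SE 0.19, FDR = 0.0092). *nspc-16* was also higher in mutants at both, by 1.10 and 2.47, with an interaction of 1.38 (SE 0.34, FDR = 0.049). *ptc-1*, the Patched receptor homologue that is needed in the germline, fell by 0.37 in mutants at 20 °C from 554 ± 35.1 to 429 ± 4.31 CPM (SD, n = 4 each). At 25 °C it was at 344 ± 11.5 (n = 4) and 349.9 ± 7.21 CPM (n = 3), and its interaction was 0.39 (SE 0.08, FDR = 0.030).

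**Figure D5:**
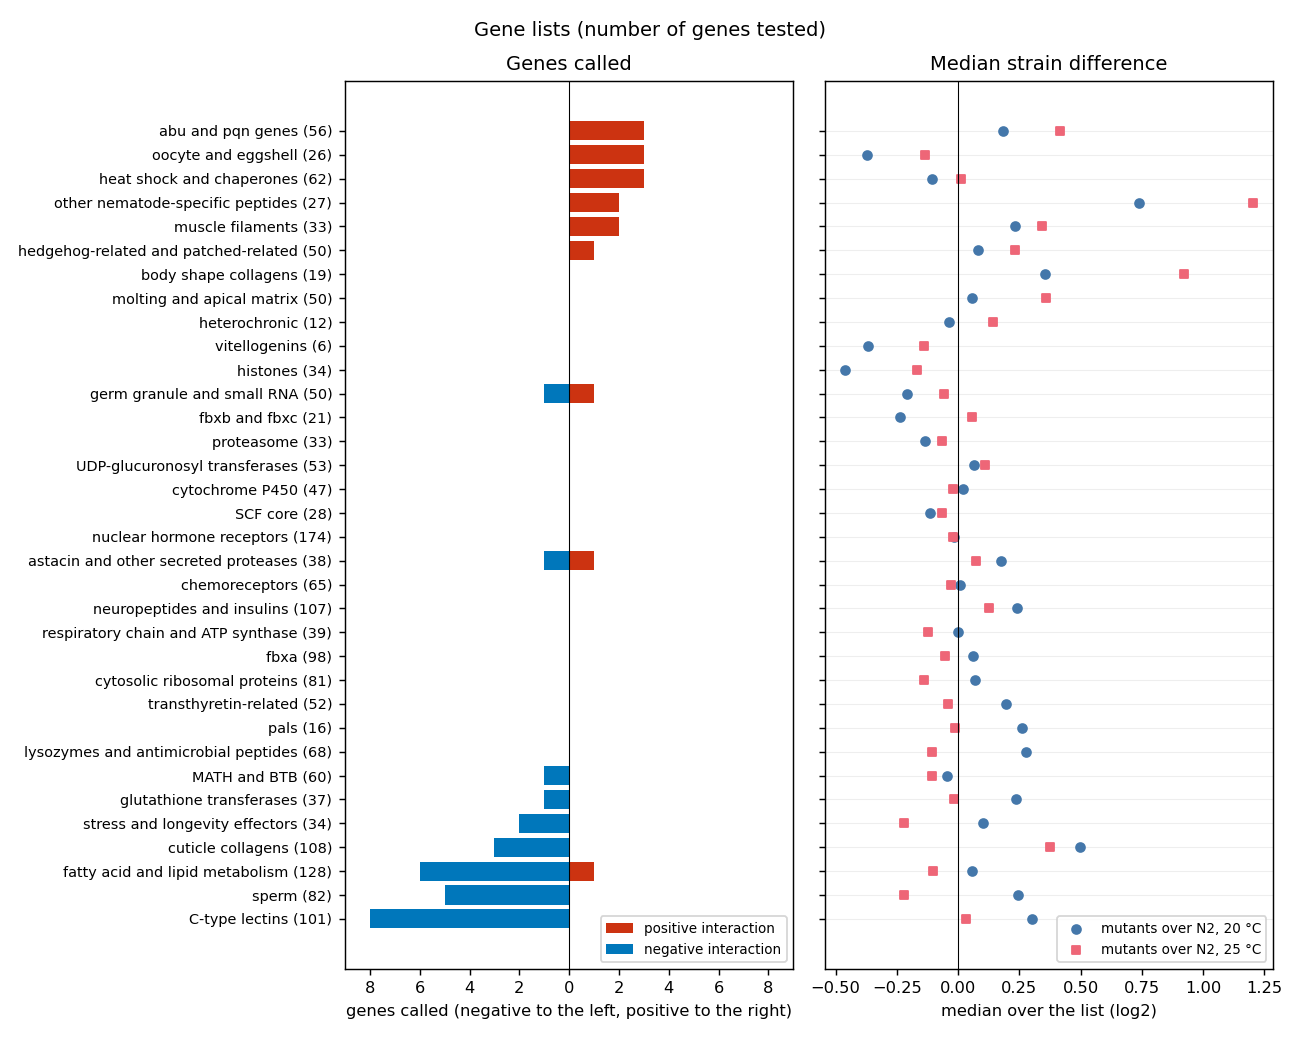
For each of 34 gene lists (y axis, number of genes tested in brackets), the genes called with a positive (red, to the right) or negative (blue, to the left) interaction in the left panel, and the list's median log2 difference of mutants over N2 at 20 °C (circles) and 25 °C (squares) in the right panel. Called members are all positive for oocyte and eggshell genes (3 of 26) and chaperones (3 of 62) and all negative for sperm genes (5 of 82) and C-type lectins (8 of 101).

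The numbers called among ubiquitin ligase and proteasome genes depended on the method. Of 98 *fbxa* genes, 21 *fbxb* and *fbxc* genes, 28 genes of the SCF core and 33 proteasome subunits none (0 genes) was called by edgeR. DESeq2 called 0, 1, 4 and 5 of them and limma voom 3, 1, 6 and 9. Of all 14000 genes these methods called 1055 and 2017. An unadjusted p under 0.05 in edgeR was reached by 10, 5, 6 and 11, where 24.6% of all genes reached it. Fits without 1 library called up to 2, 1, 5 and 8. Without mutant replicate 4 at 20 °C and mutant replicate 1 at 25 °C together the counts were 4, 3, 5 and 15. That fit called 3030 of 14166 genes. The median interaction of the *fbxa* genes was -0.14. *fbxa-192* and *fbxa-210*, of the same A2 family, had interactions of 0.10 (SE 0.13, edgeR FDR = 0.68) and 0.29 (SE 0.13, FDR = 0.17). Of 60 genes of the MATH and BTB families of ubiquitin ligase adaptors 1 was called, where 1.46% of all genes were. Fits without 1 library called 0 to 5 of the 60. The called gene, *bath-26*, had a low level, with means of 0.400 and 0.750 CPM in N2 and mutants at 20 °C and 2.56 and 1.24 CPM at 25 °C. Its interaction was -1.91 (SE 0.41, FDR = 0.035), and it shares exons with another counted gene.

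*C01B10.8* was lower in mutants at both temperatures. It was at 109.7, 118, 113 and 108 CPM in N2 and 11.1, 13.9, 13.1 and 14.4 CPM in mutants at 20 °C, and at 77.7, 77.1, 71.4 and 85.1 CPM in N2 and 10.9, 13.8 and 14.1 CPM in mutants at 25 °C. The mutant level was alike at both temperatures and the N2 level was lower at 25 °C, and the interaction of 0.50 (SE 0.13, edgeR FDR = 0.055) missed the threshold. It passed in 7 of 26 alternatives, DESeq2 and limma voom among them, with values from 0.43 to 0.67 over the 26. *eif-2D*, a translation initiation factor, was also lower in mutants at both temperatures, by 1.77 and 1.67, with an interaction of 0.10 (SE 0.13, FDR = 0.67).

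The widest interactions belonged to genes with few reads. Among genes that reached a group mean of 50 counts, the most negative was that of *Y37H2A.14* at -2.30 (SE 0.43, edgeR FDR = 0.019). It held 0.506, 0.330, 0.463 and 0.724 CPM in N2 and 3.27, 3.33, 1.999 and 3.91 CPM in mutants at 20 °C, and 4.93, 4.73, 6.97 and 3.11 CPM in N2 and 7.52, 4.71 and 6.29 CPM in mutants at 25 °C. N2 at 20 °C was low on its own. Next came *F53F4.18* at -2.20 (SE 0.54, FDR = 0.049) and *F53A9.7* at -1.89 (SE 0.44, FDR = 0.043), for which N2 at 25 °C was the high group, and the pseudogene WBGene00017529 at -1.83 (SE 0.42, FDR = 0.039). *dlc-3*, a dynein light chain, had 3.06, 1.85 and 1.34 CPM in mutants at 25 °C and group means between 2.89 and 4.37 CPM elsewhere, an interaction of -1.58 (SE 0.35, FDR = 0.036). *Y4C6A.4* at -1.34 (SE 0.31, FDR = 0.039) and *Y66D12A.3* at -1.24 (SE 0.28, FDR = 0.036) completed the 10 most negative with *msp-63*, *clec-85* and *gst-38*.

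Of the 10 most positive by the same rule, *C35E7.5* had an interaction of 1.62 (SE 0.33, edgeR FDR = 0.028), *M151.3* of 1.52 (SE 0.28, FDR = 0.018) and *F43C9.1*, which shares exons with another counted gene, of 1.40 (SE 0.27, FDR = 0.023). *M151.3* was at 4.91, 5.03, 5.65 and 5.39 CPM in N2 and 2.95, 2.95, 2.77 and 2.64 CPM in mutants at 20 °C, and at 2.07, 1.999, 1.65 and 3.19 CPM in N2 and 2.88, 3.63 and 3.86 CPM in mutants at 25 °C. N2 at 20 °C was high on its own. *pgph-2*, a phosphoglycolate phosphatase homologue, rose in mutants at 25 °C from 9.45 ± 1.27 (SD, n = 4) to 17.1 ± 1.49 CPM (n = 3), with an interaction of 1.18 (SE 0.22, FDR = 0.022). *pes-5* fell in mutants at 20 °C from 6.14 ± 0.585 to 3.78 ± 0.852 CPM (n = 4 each), with an interaction of 1.16 (SE 0.27, FDR = 0.042). Below 50 counts, *aaim-1* (chosen after its values were seen) had 0, 0.182, 0 and 0 CPM in N2 at 25 °C, the single value being that of 2 counts, and 0.524, 0.540 and 1.34 CPM in mutants, so its fitted interaction of 4.65 depends on the handling of zeros and bounds nothing.

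For single genes an exact permutation test of log2(CPM + 1) exchanged the strain labels within each temperature, over 2450 assignments and 2-sided, with a smallest p of 4.1e-04. The called genes were chosen for this same difference in these libraries, so their permutation p-values are given as a description and support no call. The p reached its smallest value for *Y58A7A.5*, *clec-85*, *C18H9.6*, *ssp-16*, *pqn-65*, *cpr-1* and *dnj-13* among others, and was 0.27 for *nspc-16* and 0.10 for *nspc-15*, whose mutants were higher at both temperatures. Exchanging labels assumes no strain difference at either temperature, so the test is less sensitive to genes like these.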

How the data were processed

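Polyadenylated RNA of whole young adults was sequenced from non-directional libraries. Per the labels and the study's methods, the authors trimmed reads with Trimmomatic 0.39 and quantified them with Salmon 1.5.1 against the WBcel235 annotation. The 2 deposited tables, 1 per temperature, hold estimated counts per gene, not normalised, of which 8.94% were not whole. They were joined on gene ID and rounded. The authors' DESeq2 tables (mean normalised count, log2 fold change, adjusted p and log2 expression per library) were not used.

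Of 21882 genes, 14000 passed the filter of edgeR 4.0.16 (R 4.3.3, minimum count 10). Counts were scaled by TMM and fitted by the robust quasi-likelihood test over 4 groups and 15 libraries, with Benjamini-Hochberg adjustment at 0.05. DESeq2 1.42.0 and limma 3.58.1 (voom with library weights) were alternatives, beside other scalings and filters, a replicate block and leaving out each library. SE was taken from the size of the log2 value and its F statistic and is approximate. Symbols were matched for 19626 genes, and coordinates were those of WBcel235.

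Named genes were, among those called, the 10 with the largest positive and the 10 with the largest negative interaction (mean of at least 50 counts in the highest group), the 5 smallest p-values, those called in each of the 15 fits without 1 library, up to 4 of smallest p per list, and genes the study names. Genes and lists were chosen with earlier results of these data known. Nothing states whether replicates were separate cultures, so p-values measure only the spread between these libraries. No 2 libraries of a group agreed within sampling noise (chi-square per degree of freedom 4.03 to 30.2). At these depths 3 counts were worth 0.103 to 0.278 CPM. Tested on simulated data for this interaction with 13783 genes, the fit recovered 87 of 100 genes changed by 1 on the log2 scale and 96 of 100 changed by 2, and called 8 unchanged genes. The simulated counts varied independently between genes, without deviations shared across a library, so these figures do not carry over to the real libraries.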

Additional observations from a re-analysis of the deposited data

Results flagged for a closer look

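In 9 of 216 groups of 4 libraries tested, 1 library stood apart from the other 3 by Dixon's criterion, which chance alone meets in about 1 in 20 groups. Total counts were 28391866 in mutant replicate 4 at 20 °C. *pqn-21* was at 37.97 CPM in that library, *act-3* at 1529 CPM and *fbxa-215* at 0.151 CPM in mutant replicate 2 at 20 °C, and *ssp-16* at 21.3 CPM in N2 replicate 4 at 20 °C. At 25 °C *msp-63* was at 6.09 CPM in N2 replicate 2, *pqn-96* at 23.8 CPM in N2 replicate 1, *lips-15* at 49.5 CPM in N2 replicate 4 and the summed body wall muscle markers at 5608 CPM in N2 replicate 3.

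A difference of the strain effect between the temperatures was found for 205 genes, and for each of the following it is given as the log2 interaction. Positive values were those of *nspg-8* (1.89), *C35E7.5* (1.62), *Y58A7A.5* (1.58), *M151.3* (1.52), *F43C9.1* (1.40), *nspc-16* (1.38), *inx-2* (1.26), *nspc-15* (1.20), *pgph-2* (1.18), *pes-5* (1.16), *cpr-1* (1.16), *inx-3* (0.95), *enee-1* (0.87), *meg-1* (0.84), *cpg-1* (0.83), *pqn-21* (0.78), *act-3* (0.70), *cbd-1* (0.69), *oma-2* (0.61), *pqn-96* (0.59), *pqn-65* (0.57), *act-2* (0.47), *dnj-13* (0.45), *hsp-3* (0.43), *ptc-1* (0.39) and *hsp-4* (0.36).

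Negative values were those of *Y37H2A.14* (-2.30), *F53F4.18* (-2.20), *bath-26* (-1.91), *F53A9.7* (-1.89), WBGene00017529 (-1.83), *dlc-3* (-1.58), *Y4C6A.4* (-1.34), *msp-63* (-1.34), *clec-85* (-1.31), *gst-38* (-1.31), *Y66D12A.3* (-1.24), *dod-22* (-1.22), *spe-46* (-1.06), *col-141* (-1.05), *dod-23* (-1.03), *F54D5.4* (-1.02), *C18H9.6* (-0.94), *ssp-16* (-0.92), *col-149* (-0.91), *msp-36* (-0.87), *clec-62* (-0.80), *col-159* (-0.77), *clec-209* (-0.72), *acox-3* (-0.69), *lips-15* (-0.60), *lbp-2* (-0.57), *clec-63* (-0.57), *asp-4* (-0.55), *alg-4* (-0.54) and *lipl-5* (-0.40).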

How the results depend on the processing

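The number of genes called rested on the method and on single libraries. Against 205 genes, DESeq2 called 1055, limma voom with library weights 2017 and edgeR with at least 10 counts in every library 338. Requiring also an absolute log2 interaction above 1 left 43. Without 1 library the count ran from 12 to 1604. In alternatives chosen after seeing the data, thinning mutant replicate 4 at 20 °C to the median depth of the others gave 330, and leaving out both that library and mutant replicate 1 at 25 °C gave 3030. The cause was not tested. DESeq2 size factors gave 177, library size scaling 168, no filter 271, a non-robust fit 161 and unrounded counts 277. The balance of positive to negative calls was 79 to 98 with DESeq2 size factors, 69 to 99 with library size scaling and 163 to 114 with unrounded counts, and 79 of the 271 were positive with no filter.

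With a replicate block 20 genes passed. The 7 pairs of libraries with the same number deviated from their group means with correlations of -0.303 to 0.211, of which 1 was over 0.1. With so few libraries per group, each centred on its group mean, such correlations cannot decide whether equal numbers mark a shared preparation.

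The 56 called genes named by the rule kept their direction in all 1442 values computed under alternatives, and 1012 were still past the FDR and 430 not. These genes were chosen by the same difference in these libraries, so the kept directions describe them and test nothing. Values that turned sign belonged to results that were not called. *fbxa-215* went from -1.81 to 0.27 without mutant 20 °C replicate 2 (-2.33 to 0.27 without 1 library), *eif-2D* from 0.10 to -0.031 without mutant 25 °C replicate 1 (-0.031 to 0.16) and to -0.026 with both libraries left out. *hsf-1* went from -0.024 to 0.10 without mutant 25 °C replicate 2 (-0.15 to 0.10), and the median of the body shape collagens from 0.57 to -0.41 without N2 20 °C replicate 4 (-0.41 to 0.88). A level below 3 counts could not be told from 0 at these depths.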

Other observations

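Genes of protein export from the endoplasmic reticulum were also among those called, chosen after their values were seen. *sec-16A.1*, a scaffold of export sites, had an interaction of 0.43 (SE 0.10, edgeR FDR = 0.042). It was at 139, 158, 172 and 140.3 CPM in N2 and 125, 117, 129 and 132 CPM in mutants at 20 °C, and at 124.1, 115, 113 and 123.4 CPM in N2 and 128, 131 and 138 CPM in mutants at 25 °C. The order of the strains reversed without overlap. *sec-24.2*, a cargo adaptor of the vesicle coat that shares exons with another counted gene, rose by 0.29 in mutants at 25 °C, with an interaction of 0.45 (SE 0.10, FDR = 0.036).

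*gipc-1* and *gipc-2* had negative interactions of -0.64 (SE 0.12, edgeR FDR = 0.023) and -0.53 (SE 0.12, FDR = 0.036) and were chosen in the same way. *gipc-1* was at 119 ± 10.97 and 144 ± 8.08 CPM in N2 and mutants at 20 °C (SD, n = 4 each) and at 175 ± 14.9 (n = 4) and 136 ± 17.03 CPM (n = 3) at 25 °C, with no overlap of the strains at either temperature.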
